A study of Mus musculus with 24 samples.

Results

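Transcripts of 9 genes of the mouse Serpina1 and Serpina3 clusters were followed in hepatocytes from aged mice, to see how a high-fat diet and rapamycin, an inhibitor of the kinase mTOR, bore on liver antiprotease genes. The genes were taken by symbol from a table of 55421 genes. They were Serpina1a, Serpina1b, Serpina1c, Serpina1d and Serpina1e (5 genes) and Serpina3g, Serpina3k, Serpina3m and Serpina3n (4 genes). All 24 mice were C57BL/6J males and were given vehicle or rapamycin in encapsulated form (eRapa, 42 ppm), begun at an age of 4 months. When 18 months old, 8 mice remained on normal diet with vehicle (ND+veh), while for 9 weeks 7 mice ate a high-fat diet (60% of its calories were fat) with vehicle (HFD+veh) and 9 ate that diet with eRapa (HFD+eRapa). The HFD+eRapa mice had eRapa both before the diet and during it, so treatment in these periods cannot be told apart. There was no final group on normal diet with eRapa, so an action of eRapa without the diet was not measured. Hepatocytes were obtained by perfusion of the liver in 2 steps, and polyadenylated RNA was sequenced, with 1 library per animal.

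The libraries held 17.7 to 25.9 M counts (M, 1000000). Serpina1 counts made up between 0.718% and 2.42% of a library and Serpina3 counts between 0.403% and 1.72%, so counting error was small beside the spread between animals. The 95% Wilson interval around any of these percentages reached at most 0.0071 percentage points to either side. Albumin and the other measured hepatocyte markers (7 of 8 listed) were abundant in all libraries, with summed levels of 56600 to 164000 counts per M (CPM). The summed level of 8 macrophage markers was 32.5 to 967 CPM in ND+veh, 120 to 2610 CPM in HFD+veh and 9.97 to 710 CPM in HFD+eRapa, so markers of other liver cells were present in all groups. In such bulk samples, fewer cells of a type and less RNA per cell cannot be told apart. ND+veh replicate 4 and HFD+veh replicate 6 stood apart, the first with low Serpina1 levels and the other with the highest immune cell markers, and some results are given without them.

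Serpins are inhibitors of proteases that act as bait. The protease cuts an exposed stretch of the serpin, the reactive centre loop, and is then trapped in a dead complex with it. Alpha-1-antitrypsin, which the liver secretes into the blood in large amounts, protects the lung and other tissues from neutrophil elastase. Humans have a single gene for it, SERPINA1, whereas the mouse carries a row of near-identical Serpina1 copies. The human gene for alpha-1-antichymotrypsin, SERPINA3, likewise corresponds to a larger mouse cluster. Of its members, Serpina3k and Serpina3m are liver genes for plasma proteins, Serpina3n is a liver acute phase gene whose product can inhibit granzyme B and neutrophil elastase, and Serpina3g encodes an intracellular inhibitor of lysosomal cathepsins known from activated lymphocytes and macrophages.

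All 9 genes are protein coding and lie on chromosome 12 of GRCm38. The Serpina1 genes are on the minus strand, with Serpina1a at chr12:103853589-103863562, Serpina1b at chr12:103728156-103830373, Serpina1c at chr12:103894926-103904887, Serpina1d at chr12:103763594-103773592 and Serpina1e at chr12:103946931-103958975. The Serpina3 genes are on the plus strand, with Serpina3g at chr12:104236245-104241939, Serpina3k at chr12:104338486-104346144, Serpina3m at chr12:104338486-104394257 and Serpina3n at chr12:104406729-104414329. The annotated span of Serpina1b contains Serpina1d, and that of Serpina3m contains Serpina3k, with which it shares 60 exon bases. The coding sequences of the 5 Serpina1 genes were 96.3% to 98.5% identical in pairs, and 86 of 1239 aligned positions (6.94%) varied. The most variable stretch of 60 bases held 18 of these positions. It is shown because it is what tells the copies apart, and it lies toward the 3′ end, where serpins encode the reactive centre loop. Capitals mark bases carried by fewer than 3 of the genes.
Serpina1a: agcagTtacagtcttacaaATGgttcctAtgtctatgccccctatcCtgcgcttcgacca
Serpina1b: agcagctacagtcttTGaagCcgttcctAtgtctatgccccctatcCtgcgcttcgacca
Serpina1c: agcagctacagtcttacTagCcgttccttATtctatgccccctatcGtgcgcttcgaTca
Serpina1d: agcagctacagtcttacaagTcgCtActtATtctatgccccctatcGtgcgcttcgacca
Serpina1e: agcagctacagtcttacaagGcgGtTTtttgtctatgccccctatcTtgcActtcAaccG

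The Serpina3 genes were less alike. Their coding sequences were 80.4% to 91.7% identical in pairs, with Serpina3k and Serpina3m the closest pair, and 184 of 642 positions aligned in all 4 (28.7%) varied. Their most variable stretch held 29 varying positions of 60 and fell in the corresponding part of the coding sequence. The Serpina3 sequences are shown with the same use of capitals, and most of the differences crowd at the 3′ end of the stretch.
Serpina3g: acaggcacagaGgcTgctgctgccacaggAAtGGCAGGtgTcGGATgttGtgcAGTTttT
Serpina3k: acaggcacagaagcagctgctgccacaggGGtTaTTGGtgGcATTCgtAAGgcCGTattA
Serpina3m: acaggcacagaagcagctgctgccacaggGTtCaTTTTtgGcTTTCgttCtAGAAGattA
Serpina3n: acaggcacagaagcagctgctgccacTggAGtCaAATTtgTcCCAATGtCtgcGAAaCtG

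These likenesses set how well a read can be given to 1 gene. Of the stretches of 100 bases in its transcript, 81.8% were unique to Serpina1e among the Serpin transcripts of the annotation, against 75.4% for Serpina1b, 73.7% for Serpina1d, 52.6% for Serpina1a and 41.5% for Serpina1c. For the Serpina3 genes the shares were 93.9% to 99.8%. A read that fits several genes equally well can be dropped or divided, and the length of the reads is not given in the sources used here. Values of single Serpina1 genes are therefore less certain than those of the Serpina3 genes, and sums over the followed genes of each family were tested as well. These sums held 5 of 6 Serpina1 rows and 4 of 14 Serpina3 rows of the counts. Family sums and shares given below refer to these rows only.

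The promoters of the Serpina1 genes are nearly copies of each other too. RefSeq promoters (GRCm38.p6, 250 bases before and 50 after the start of transcription) were found for 7 of the 9 genes, Serpina3k and Serpina3m being the others. All 5 Serpina1 promoters held the letters GTTAAT, the core letters bound by the hepatocyte factor HNF1, on either strand, as did 7.20% of 27025 promoters. In the 136 bases around those letters, 121 positions were the same in all 5 genes. These stretches are shown because Serpina1e parted from the other Serpina1 genes in transcript level while this sequence hardly differs. Whether this sequence bears on the levels was not tested. They lie on the minus strand at chr12:103863595-103863730, chr12:103738170-103738305, chr12:103904932-103905067, chr12:103773604-103773739 and chr12:103956930-103957065, in the order of the lines, and capitals mark departures from the majority.
Serpina1a: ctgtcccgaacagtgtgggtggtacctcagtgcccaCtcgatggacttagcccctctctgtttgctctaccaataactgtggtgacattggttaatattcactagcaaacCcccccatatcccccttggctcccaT
Serpina1b: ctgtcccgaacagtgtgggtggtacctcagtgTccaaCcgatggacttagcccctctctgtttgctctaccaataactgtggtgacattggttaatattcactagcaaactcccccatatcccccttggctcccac
Serpina1c: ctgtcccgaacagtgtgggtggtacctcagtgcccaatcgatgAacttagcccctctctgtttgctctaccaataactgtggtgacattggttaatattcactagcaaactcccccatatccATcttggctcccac
Serpina1d: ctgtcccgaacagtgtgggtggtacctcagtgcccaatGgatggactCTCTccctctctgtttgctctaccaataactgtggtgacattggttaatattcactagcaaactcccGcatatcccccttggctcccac
Serpina1e: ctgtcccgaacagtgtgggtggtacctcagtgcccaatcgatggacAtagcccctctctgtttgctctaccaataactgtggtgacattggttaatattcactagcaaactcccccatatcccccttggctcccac

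Serpina1e departed from the majority at 1 base, Serpina1d at 6 and the other genes at 2 or 3. The GTTAAT of Serpina1e lay 78 bases before the RefSeq start, against 16 to 27 bases in the other Serpina1 genes. These distances hold for RefSeq starts only, as the Gencode spans given above begin elsewhere. The stretches of Serpina1b and Serpina1e lie inside the Gencode spans of their own genes. The promoter of Serpina3g held the interferon-gamma element TTCNNNGAA, which 8.47% of all promoters hold on either strand, and those of Serpina1a to Serpina1e and of Serpina3n did not. The C/EBP letters TTNNGNAA were in 40.7% of all promoters and in 6 of these 7, all but that of Serpina1c. GTTAAT was absent from the windows of Serpina3g and Serpina3n. These are matches of letters and say nothing of binding.

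Per length of transcript, as FPKM (fragments per kilobase per M fragments), 3 alpha-1-antitrypsin genes led in ND+veh. Serpina1c stood at 4773 ± 1186 FPKM (SD, n = 8), Serpina1b at 4486 ± 733 and Serpina1a at 3962 ± 826, differences smaller than the spread between animals. Serpina3k, at 2888 ± 769 FPKM, and Serpina1d, at 2804 ± 674, came next and did not differ beyond that spread either. Serpina1e followed at 482 ± 218 FPKM, ahead of Serpina3m at 258 ± 46.1 and Serpina3n at 161 ± 44.8. Serpina3g was far below the rest at 4.10 ± 3.27 FPKM. In HFD+eRapa, Serpina3k moved to the third place at 5068 ± 1692 FPKM (SD, n = 9) and Serpina1e to 2742 ± 2191, near Serpina1d at 2917 ± 505.

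**Figure D1:**
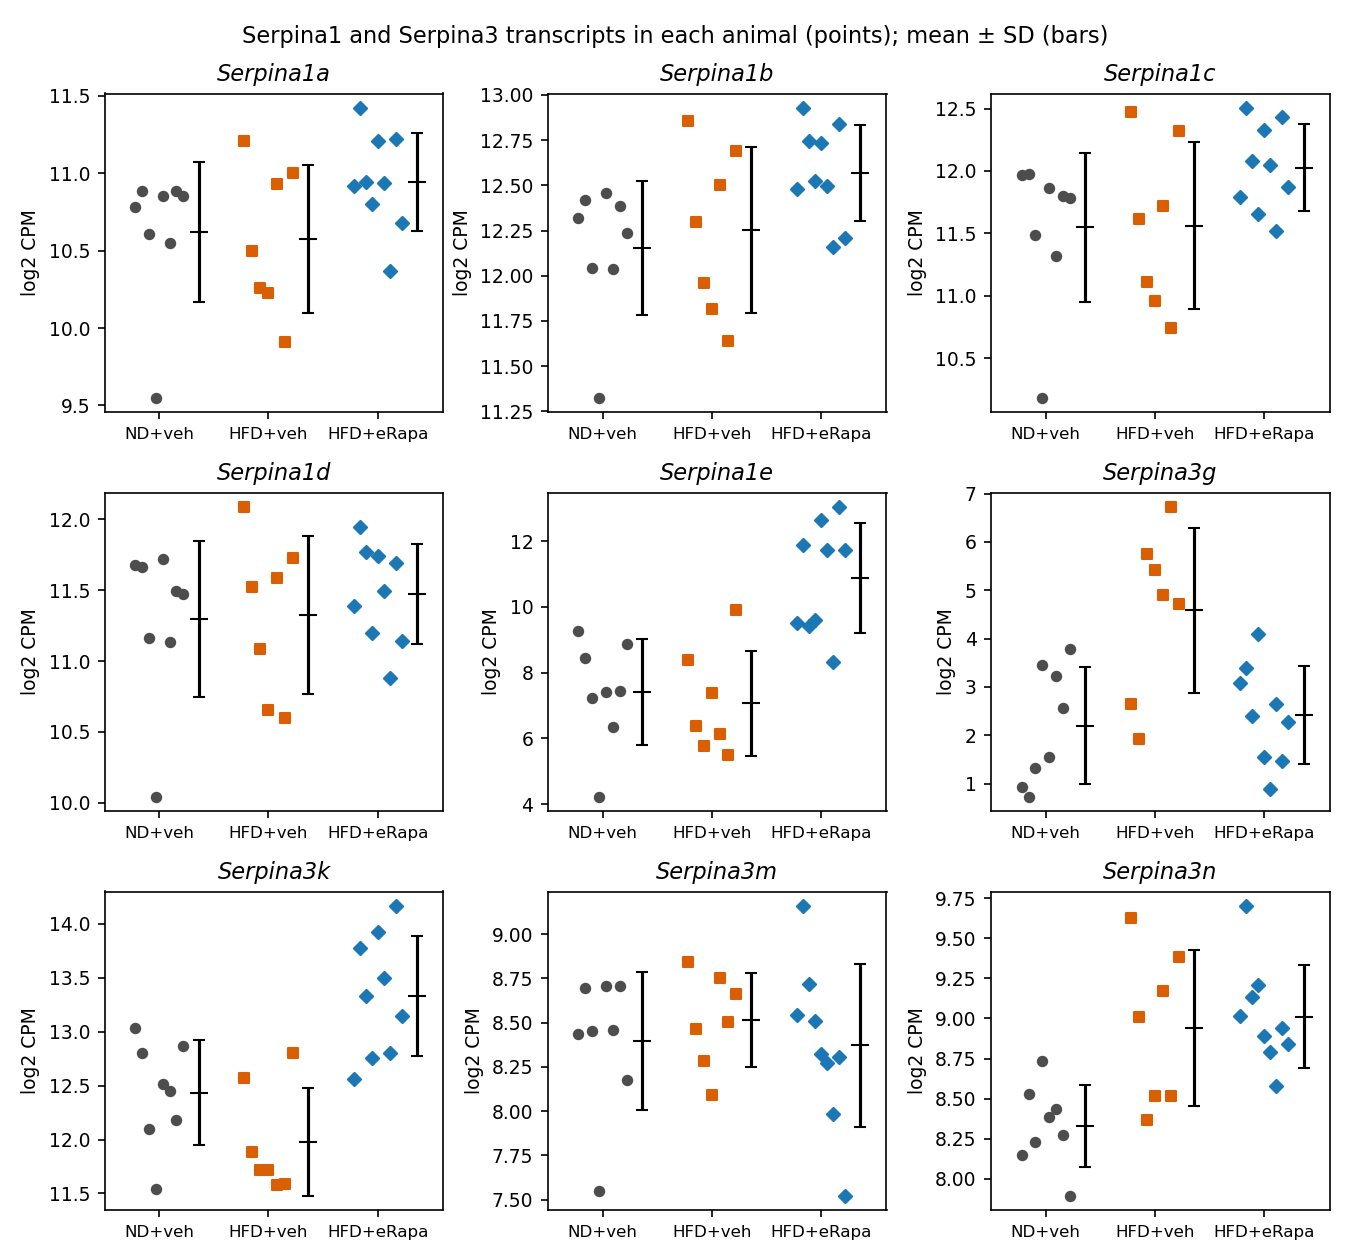
Level of each of the 9 transcripts in every animal, as log2 CPM (vertical axes, each with its own range) for ND+veh, HFD+veh and HFD+eRapa, with 1 point per animal and the mean ± SD of the group as a bar. Serpina1e and Serpina3k stand highest in HFD+eRapa, Serpina3g in HFD+veh, and Serpina3n is raised in both high-fat diet groups, while the points of all groups overlap for every gene.

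The first comparison, HFD+veh against ND+veh, asked what the diet changed. Of the 9 genes 2 were called, Serpina3g and Serpina3n, both higher on the high-fat diet, where called means an edgeR adjusted p under 0.05. Among all 13847 genes tested 25.9% were called, 16.0% higher and 9.86% lower. The median log2 fold change was 0.06 over the 9 genes and 0.05 over all genes tested, and for none of the 9 did the groups fail to overlap, against 2.44% of all genes. The second comparison, HFD+eRapa against HFD+veh, asked what eRapa changed on that diet. Serpina1e and Serpina3k were called higher and Serpina3g lower, 3 of 9 genes, where 32.0% of all genes were called, 10.9% higher and 21.1% lower. The medians were 0.28 over the 9 genes and -0.04 over all genes, and groups without overlap occurred for 0 of the 9 and 2.59% of all genes. The last comparison was that of HFD+eRapa with ND+veh. Serpina1e, Serpina3k and Serpina3n were called, 3 of 9 and all higher, against 13.5% of all genes, 6.93% higher and 6.54% lower. The medians were 0.40 and -0.03, and 0 of the 9 genes and 3.37% of all genes showed no overlap. The 3 comparisons share groups, so their values are given side by side and are not independent of each other.

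**Figure D2:**
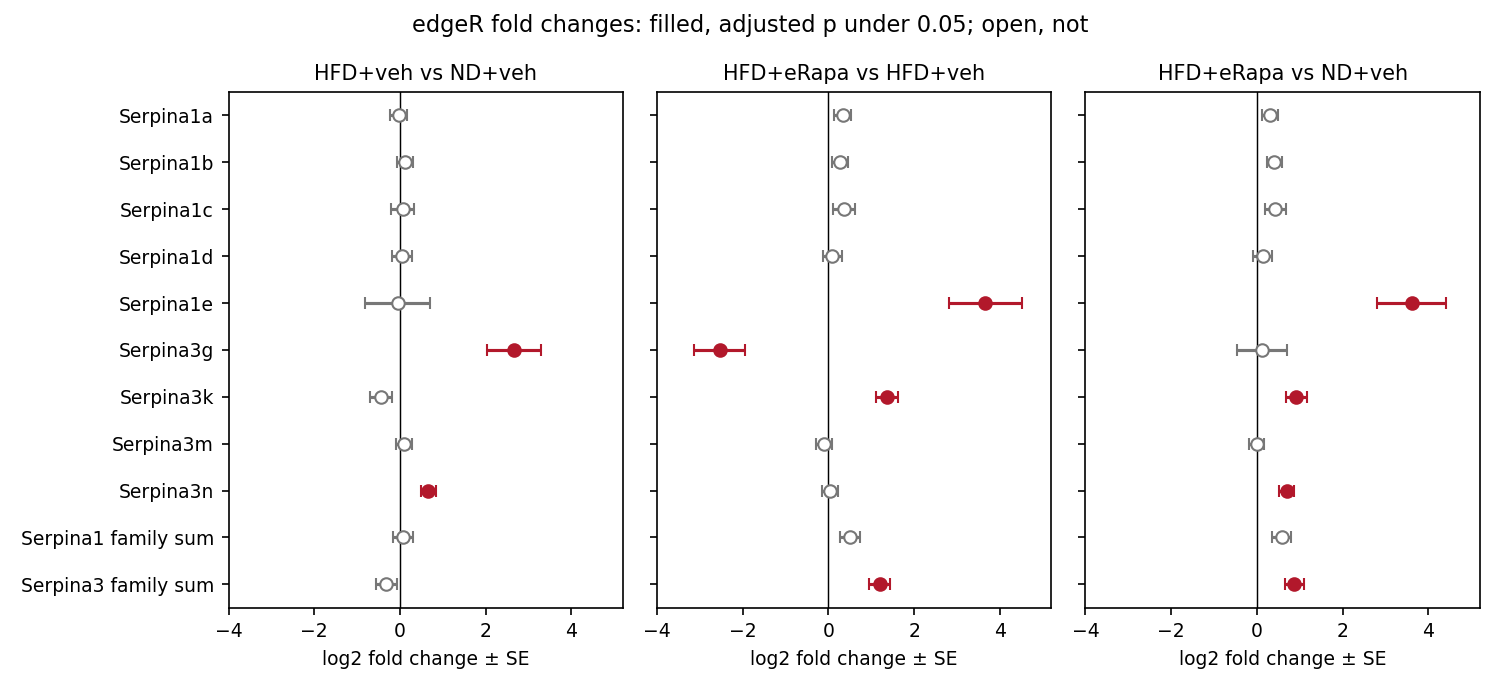
Log2 fold change ± SE from edgeR (horizontal axis) for the 9 genes and both family sums in the 3 comparisons, with filled points for an adjusted p under 0.05 and open points otherwise. Serpina1e, Serpina3k and the Serpina3 sum are filled on the positive side in both eRapa comparisons, while Serpina3g is positive with the diet and negative with eRapa.

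The bulk of the alpha-1-antitrypsin transcripts, from Serpina1a to Serpina1d, was called in none of the 3 comparisons. Serpina1b, which took the most counts, ran from 2566 to 5613 CPM in ND+veh (median 4966), from 3193 to 7425 in HFD+veh (median 5025) and from 4574 to 7792 in HFD+eRapa (median 5890). The groups overlapped widely, and ND+veh replicate 4 was the lowest of all animals. The log2 fold change was 0.13 with the diet (95% interval -0.24 to 0.49), 0.28 for eRapa on the diet (-0.08 to 0.63) and 0.40 for HFD+eRapa against ND+veh (0.06 to 0.74, edgeR adjusted p = 0.140). Without ND+veh replicate 4 the last of these was 0.30 (SE 0.167, edgeR adjusted p = 0.294). Serpina1c ran from 1163 to 4032 CPM in ND+veh (median 3545), from 1714 to 5678 in HFD+veh (median 3140) and from 2927 to 5813 in HFD+eRapa (median 4235). The highest animal of HFD+eRapa had 1.99 times the lowest, against 3.47 times in ND+veh and 3.31 times in HFD+veh.

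Serpina1d and Serpina1a also overlapped widely between groups. Serpina1d ran from 1056 to 3373 CPM in ND+veh (median 2864), from 1553 to 4347 in HFD+veh (median 2946) and from 1887 to 3949 in HFD+eRapa (median 2879), so that the medians hardly differed. Serpina1a ran from 749 to 1893 CPM in ND+veh (median 1805), from 964 to 2368 in HFD+veh (median 1445) and from 1320 to 2743 in HFD+eRapa (median 1963). Over these 4 genes the log2 fold changes lay between -0.03 and 0.13 with the diet, between 0.09 and 0.37 for eRapa on the diet and between 0.14 and 0.43 for HFD+eRapa against ND+veh. The largest of them, that of Serpina1c against ND+veh, was 0.43 (SE 0.244, edgeR adjusted p = 0.280). Without ND+veh replicate 4 it was 0.29 (edgeR adjusted p = 0.480), and that of Serpina1d against ND+veh was 0.002.

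Serpina1e was the exception within its family. It stood at 18.6, 81.0, 151, 168, 174, 353, 471 and 617 CPM in the ND+veh animals and at 45.4, 55.0, 70.5, 83.2, 166, 333 and 967 CPM in the HFD+veh animals. In HFD+eRapa, replicates 1, 3, 4 and 7 had 737, 678, 776 and 322 CPM, and replicates 2, 5, 6, 8 and 9 had 3813, 6368, 3414, 8429 and 3417 CPM. These 5 animals lay above every animal on vehicle, the other 4 lay within the range of the vehicle groups, and no HFD+eRapa animal was below the median of either vehicle group. The HFD+eRapa level of Serpina1e was 12.6 times that of HFD+veh, with a log2 change of 3.66 ± 0.852 (SE, edgeR adjusted p = 0.00325). It was 12.2 times that of ND+veh, with a log2 change of 3.61 ± 0.804 (SE, edgeR adjusted p = 0.00355). Between HFD+veh and ND+veh the difference was -0.05 (95% interval -1.54 to 1.44), an interval wide enough to hold a change of either direction. Without HFD+veh replicate 7 it was -1.02 (edgeR adjusted p = 0.310).

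The size of the Serpina1e rise differed between the 2 kinds of table and their fits. In the FPKM values, made by another program from the same alignments, it was 4.99-fold against HFD+veh and 4.44-fold against ND+veh (limma on log2(FPKM + 1), adjusted p = 0.00333 and 0.00494). In ND+veh replicate 4, where the counts gave 18.6 CPM of Serpina1e, its level was 171 FPKM, and the highest animal was 5.07 times the lowest within ND+veh in FPKM, against 33.1 times in CPM. The rise was called in 34 of 34 alternatives in both comparisons, with log2 fold changes of 2.32 to 4.63 and of 2.15 to 3.90. Without HFD+veh replicate 7, the vehicle animal with the most Serpina1e, the first of these was 4.63. Within HFD+eRapa, replicates 5, 6, 8 and 9 also had the lowest macrophage marker sums, 9.97 to 37.6 CPM, whereas replicate 2, with 3813 CPM of Serpina1e, had the highest at 710 CPM. The part of other cells in these values was not tested.

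Shares of the family total tell how the make-up of the alpha-1-antitrypsin transcripts shifted in each animal, whatever the total. Serpina1e supplied 1.86% ± 1.36 of Serpina1 counts in ND+veh (SD, n = 8), 1.61% ± 1.74 in the 7 HFD+veh animals and 14.6% ± 10.6 in the 9 HFD+eRapa animals, where it reached 31.2% in replicate 8. The share in HFD+eRapa was 12.97 percentage points above that in HFD+veh (two-sided exact permutation p = 0.00542) and 12.7 above that in ND+veh (exact permutation p = 0.00370). The ranges overlapped, at 2.92% to 31.2% in HFD+eRapa, 0.495% to 5.33% in HFD+veh and 0.336% to 4.18% in ND+veh. In FPKM the share of Serpina1e was 11.7% ± 7.59 in HFD+eRapa, 2.63% ± 1.12 in HFD+veh and 2.81% ± 0.859 in ND+veh.

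Shares add up to the whole, so the other copies together had to give way. Serpina1d fell from 21.04% ± 1.75 of Serpina1 counts in HFD+veh to 16.1% ± 2.36 in HFD+eRapa (exact permutation p = 0.000787) and stood at 21.2% ± 1.15 in ND+veh (exact permutation p against HFD+eRapa = 0.000165). Serpina1b went from 39.96% ± 2.45 to 34.6% ± 5.91 (exact permutation p = 0.0447) and stood at 38.4% ± 3.55 in ND+veh (exact permutation p against HFD+eRapa = 0.133). Serpina1a went from 12.5% ± 1.08 to 11.2% ± 1.39 (exact permutation p = 0.05) and stood at 13.3% ± 0.800 in ND+veh (exact permutation p against HFD+eRapa = 0.00239). Serpina1c went from 24.9% ± 2.37 to 23.5% ± 1.81 (exact permutation p = 0.226). Between HFD+veh and ND+veh the shares of all 5 genes differed by less than the spread between animals, with a lowest exact permutation p of 0.158 for Serpina1a. In FPKM that share of Serpina1a was 22.5% ± 0.556 in HFD+veh and 24.03% ± 0.556 in ND+veh, without overlap (exact permutation p = 0.000155), so the counts and the FPKM gave different calls. Over both families 27 shares were tested and the p-values are not adjusted. Of them 15 were under 0.05, namely 4 with the diet, 7 for eRapa on the diet and 4 for HFD+eRapa against ND+veh.

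**Figure D3:**
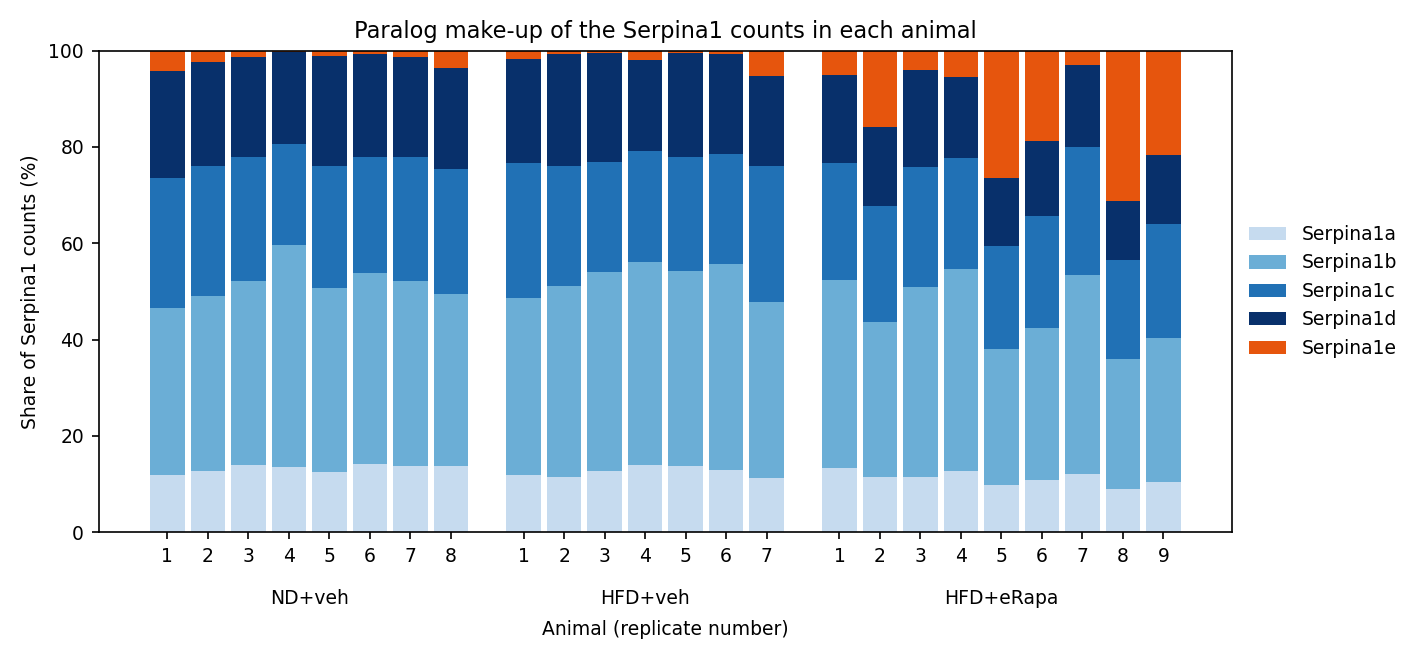
Share of each gene in the Serpina1 counts (vertical axis, percent, from 0) in each of the 24 animals, grouped as ND+veh, HFD+veh and HFD+eRapa, with 1 stacked bar per animal. The Serpina1e segment at the top is at most 5.33% in the vehicle groups and runs from 2.92% to 31.2% in HFD+eRapa.

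The sum of the 5 Serpina1 genes ran from 5552 to 14986 CPM in ND+veh (median 13685), from 7469 to 20150 in HFD+veh (median 12639) and from 11030 to 26988 in HFD+eRapa (median 17345). HFD+eRapa lay higher, with 8 of 9 animals above the median of each vehicle group, and all groups overlapped. The log2 fold change was 0.07 with the diet (edgeR adjusted p = 0.855), 0.51 for eRapa on the diet (SE 0.233, edgeR adjusted p = 0.0965) and 0.58 against ND+veh (SE 0.224, edgeR adjusted p = 0.0923), and none was called. Without HFD+veh replicate 1, the vehicle animal with the most Serpina1, the second value was 0.65 and was called (edgeR adjusted p = 0.0341). Without ND+veh replicate 4 the value against ND+veh was 0.45 (edgeR adjusted p = 0.184). With Serpina1e left out of the sum, a choice made after its values were seen, the values for eRapa were 0.27 (edgeR adjusted p = 0.340) and 0.34 (edgeR adjusted p = 0.305). The direction with the diet was not stable, as the sum changed by -0.04 in FPKM.

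Serpina3k, the leading Serpina3 gene and a plasma protein gene of the liver, rose with eRapa. It ran from 2978 to 8387 CPM in ND+veh (median 5713). In HFD+veh 5 animals had 3048 to 3791 CPM, and replicates 1 and 7 had 6097 and 7142. In HFD+eRapa it ran from 6052 to 18356 CPM (median 10303), with replicates 2, 5 and 8 at 14032, 15520 and 18356. All 9 HFD+eRapa animals lay above the medians of both other groups, and the 5 lower HFD+veh animals lay below all of them. With eRapa on the diet Serpina3k reached 2.58 times the HFD+veh level, with a log2 change of 1.37 ± 0.262 (SE, edgeR adjusted p = 0.000803), and 1.90 times that of ND+veh, with a log2 change of 0.92 ± 0.247 (SE, edgeR adjusted p = 0.0130). With the diet alone the value was -0.44 (95% interval -0.95 to 0.07, edgeR adjusted p = 0.210). Both eRapa calls held in 34 of 34 alternatives.

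Because Serpina3k supplied most of the family's counts, the Serpina3 sum followed it. The sum ran from 3602 to 9019 CPM in ND+veh (median 6444), from 3903 to 8240 in HFD+veh (median 4085) and from 6951 to 19166 in HFD+eRapa (median 11292). The HFD+eRapa animals were highest, with overlap only through the 2 top HFD+veh animals and the upper part of ND+veh. The log2 fold change was 1.19 for eRapa on the diet (SE 0.240, edgeR adjusted p = 0.00116), 0.88 against ND+veh (SE 0.228, edgeR adjusted p = 0.0106) and -0.32 with the diet (edgeR adjusted p = 0.332). The share of Serpina3k in the sum was 88.7% ± 3.49 in ND+veh, 81.5% ± 3.85 in HFD+veh and 91.9% ± 3.04 in HFD+eRapa (SD, n = 8, 7 and 9). The drop with the diet had an exact permutation p of 0.00233. The rise with eRapa, from 74.6% to 86.7% in HFD+veh to between 87.1% and 95.8%, left no overlap, and its exact permutation p of 8.74e-05 is the smallest that these group sizes can give.

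Serpina1e and Serpina3k varied together from animal to animal. Over the 24 libraries, with group means removed from log2 CPM, their Pearson r was 0.892. The pair was picked because of that likeness, so the values within groups are given as a description with no test. Within ND+veh the Pearson r was 0.916 and Spearman's rho 0.881 (n = 8), within HFD+veh they were 0.925 and 0.750 (n = 7), and within HFD+eRapa 0.854 and 0.803 (n = 9). Without the 2 animals farthest from the median of Serpina1e, r was 0.693, 0.361 and 0.952 in ND+veh, HFD+veh and HFD+eRapa. The relation in HFD+veh therefore rested on replicates 1 and 7, the animals with the most of both transcripts.

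**Figure D4:**
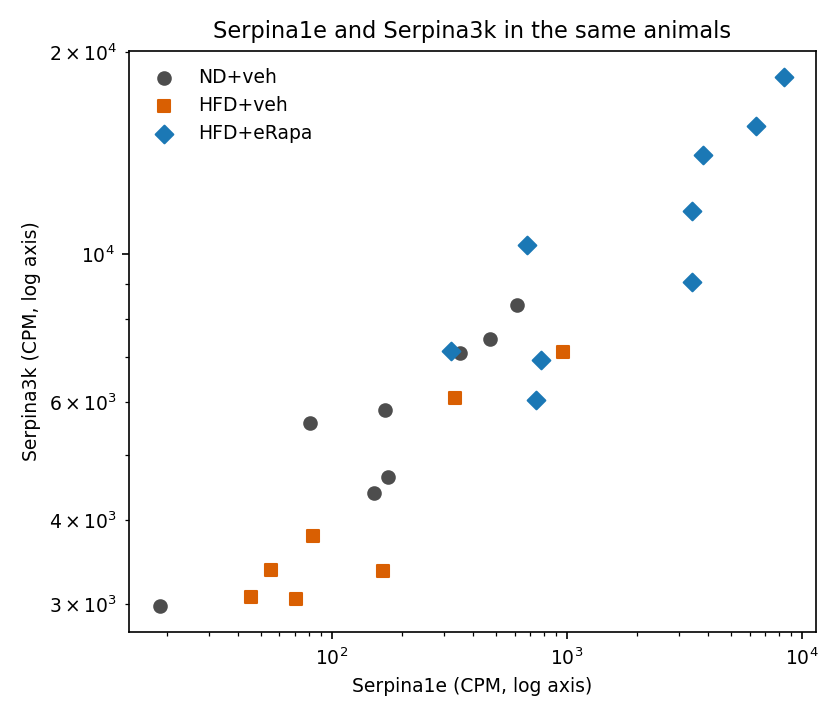
Serpina1e (horizontal log axis, CPM) against Serpina3k (vertical log axis, CPM), with 1 point for each of 24 animals and a symbol for each group. The 5 HFD+eRapa animals with 3414 to 8429 CPM of Serpina1e have 9073 to 18356 CPM of Serpina3k, above all vehicle animals on both axes.

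Serpina3g, the intracellular cathepsin inhibitor, went up with the diet and down with eRapa. It stood at 6.21, 3.70, 53.5, 42.7, 29.7, 105.5 and 26.2 CPM in HFD+veh replicates 1 to 7. In ND+veh it ran from 1.56 to 13.7 CPM (median 4.32) and in HFD+eRapa from 1.75 to 17.0 CPM (median 5.21). HFD+veh replicates 3 to 7 lay above every animal of the other groups, and replicates 1 and 2 lay within their ranges. On the high-fat diet Serpina3g reached 6.30 times its ND+veh level, with a log2 change of 2.65 ± 0.629 (SE, edgeR adjusted p = 0.00548), and the HFD+veh level was 5.81 times that of HFD+eRapa, with a log2 change of -2.54 ± 0.601 (SE, edgeR adjusted p = 0.00359). HFD+eRapa and ND+veh differed by 0.12 (95% interval -1.01 to 1.25). Without HFD+veh replicate 6 the first 2 values were 2.10 and -1.98, still called (edgeR adjusted p = 0.0229 and 0.0190). The call with the diet held in 34 of 34 alternatives. That for eRapa on the diet held in 33 of 34, the exception being the fit with replicate number as a block.

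Median marker sums of other cells were also highest in HFD+veh. HFD+veh replicates 3 to 7 had macrophage marker sums of 628 to 2606 CPM, while replicates 1 and 2, with little Serpina3g, had 122 and 120 CPM. Of the 8 macrophage markers, 3 were called higher with the diet (16.0% of all genes) and 6 lower for eRapa on the diet (21.1% of all genes). The medians of their sum were 187, 1540 and 126 CPM in ND+veh, HFD+veh and HFD+eRapa. The median sum of 7 lymphocyte markers was 0.503, 7.41 and 0.729 CPM in those groups, with a highest value of 40.8 CPM in HFD+veh replicate 6, and 1 of the 7 (Trbc2) could be tested. For 6 neutrophil markers the medians were 1.12, 23.1 and 2.32 CPM, and Ly6g, a defining one, was at 0 counts in all ND+veh and HFD+eRapa libraries. Endothelial markers (6) had median sums of 169, 349 and 104 CPM, stellate cell markers (7) of 112, 140 and 40.2 CPM and cholangiocyte markers (6) of 5.79, 106 and 20.9 CPM. With the diet 1 of 6 endothelial, 2 of 7 stellate, 2 of 3 tested neutrophil and 3 of 3 tested cholangiocyte markers were called higher. For eRapa on the diet 6, 7, 2 and 1 of these were called lower. Against ND+veh, 4 stellate markers were called lower and the cholangiocyte marker Spp1 higher (6.54% and 6.93% of all genes). The part of these cells in the Serpina3g values was not tested.

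**Figure D5:**
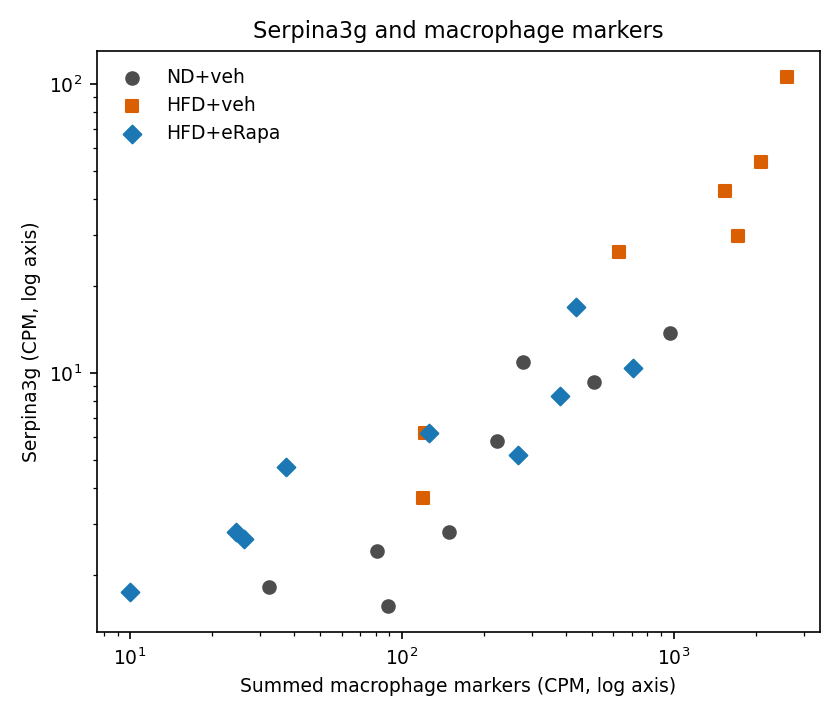
Summed level of 8 macrophage markers (horizontal log axis, CPM) against Serpina3g (vertical log axis, CPM), with 1 point for each of 24 animals and a symbol for each group. HFD+veh replicates 3 to 7 lie at the upper right, at 628 to 2606 CPM of markers and 26.2 to 105.5 CPM of Serpina3g, and the other 2 HFD+veh animals lie among those of ND+veh and HFD+eRapa.

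Serpina3n, the acute phase member, was raised in both high-fat diet groups, whether or not eRapa was given. It ran from 238 to 426 CPM in ND+veh (median 322), from 331 to 791 in HFD+veh (median 514) and from 383 to 832 in HFD+eRapa (median 491). All 7 HFD+veh and all 9 HFD+eRapa animals lay above the ND+veh median. The overlap with HFD+eRapa came only from ND+veh replicate 4, the highest of its group. ND+veh replicates 2, 5 and 6 (369, 335 and 346 CPM) also lay above the lowest HFD+veh animal, at 331 CPM. Serpina3n stood at 1.58 times its ND+veh level in HFD+veh, with a log2 change of 0.66 ± 0.183 (SE, edgeR adjusted p = 0.0127), and at 1.62 times that level in HFD+eRapa, with a log2 change of 0.70 ± 0.173 (SE, edgeR adjusted p = 0.00776). Between the high-fat diet groups the difference was 0.03 (95% interval -0.31 to 0.38). Both calls held in 34 of 34 alternatives.

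Serpina3m, the closest relative of Serpina3k in sequence, did not follow it. It ran from 187 to 418 CPM in ND+veh (median 351), from 273 to 458 in HFD+veh (median 362) and from 184 to 571 in HFD+eRapa (median 320), with full overlap of the groups. None of its differences was called, at 0.10 with the diet (95% interval -0.28 to 0.47), -0.10 for eRapa on the diet (-0.46 to 0.26) and 0.00 against ND+veh (-0.35 to 0.35). As the total grew through Serpina3k, the share of Serpina3m went from 7.57% ± 1.89 in HFD+veh to 3.18% ± 1.29 in HFD+eRapa, and that of Serpina3n from 10.1% ± 2.12 to 4.89% ± 1.75 (both exact permutation p = 0.000175). The share of Serpina3g was 0.898% ± 0.927 in HFD+veh, 0.108% ± 0.098 in ND+veh and 0.0690% ± 0.0647 in HFD+eRapa.

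Likeness to other genes was measured as Pearson r over the 24 libraries of log2 CPM without group means, as a description. Levels of all genes in a library share its depth and its cell make-up. Serpina1a to Serpina1d were most like each other, with r of 0.956 to 0.973, and Nit2, an omega-amidase, was among their 3 closest genes outside the family, with r of 0.938 to 0.943. The coagulation factor X gene F10 reached 0.944 with Serpina1b, and the complement gene C8g 0.925 with Serpina1a. Serpina1e was less like its own copies, with r of 0.664 to 0.802, than like 3 genes of the major urinary proteins, which carry pheromones, namely Mup1 (0.872), Mup21 (0.857) and Mup7 (0.849). The Mup genes are themselves near-identical copies, so that their single values are uncertain. Mup1 was also low, at a mean log2 CPM of 0.895.

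The Serpina3 genes each had different neighbours. Serpina3k was most like the complement gene C8b (0.892), Mup21 (0.859) and Mup1 (0.854). Serpina3m had an r of 0.888 with Apoh and 0.884 with Afm, which encode secreted liver proteins. Serpina3n was most like the complement genes C1s1 (0.867) and Hc (0.768) and the inter-alpha-trypsin inhibitor chain Itih3 (0.818). Serpina3g was most like Ifi207 (0.973), Mndal (0.972) and Apobec3 (0.967), genes of interferon-inducible and antiviral proteins, and had a negative r, between -0.567 and -0.154, with each of the other 8 genes. Apobec3 was low, at a mean log2 CPM of 0.674.

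Other clade A serpins, the same branch of the superfamily, were read as a list of 17 genes, of which 8 passed the filter on low counts. With the diet 2 were called higher and 2 lower (median 0.05), for eRapa on the diet 3 higher and 2 lower (median 0.48), and against ND+veh 2 higher and 1 lower (median 0.14). Over all genes tested, 16.0% were higher and 9.86% lower with the diet, 10.9% and 21.1% for eRapa on the diet and 6.93% and 6.54% against ND+veh, with medians of 0.05, -0.04 and -0.03, and the lists that follow are read against the same shares. Serpina3f, a neighbour of Serpina3g, showed the same directions, with a log2 fold change of 2.23 with the diet (edgeR adjusted p = 0.0166) and -2.07 for eRapa on the diet (edgeR adjusted p = 0.0134). Serpina7, for the thyroxine-binding globulin, went the opposite way. It stood at 137 to 366 CPM in ND+veh, 15.5 to 106 in HFD+veh and 124 to 448 in HFD+eRapa, without overlap of HFD+veh with either group, and changed by -1.80 (edgeR adjusted p = 0.000904) and 1.78 (edgeR adjusted p = 0.000625). Serpina12, for the adipokine vaspin, was higher with the diet by 1.20 (edgeR adjusted p = 0.0111), and in HFD+eRapa it was 2.01 above ND+veh without overlap (edgeR adjusted p = 0.000112). Serpina6, for the corticosteroid-binding globulin, had lower levels in HFD+eRapa, with log2 fold changes of -0.93 for eRapa on the diet (edgeR adjusted p = 0.00337) and -0.85 against ND+veh (edgeR adjusted p = 0.00836). Serpina10, an inhibitor of factor X, was 0.41 above ND+veh in HFD+eRapa (edgeR adjusted p = 0.0182).

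Of 8 further secreted serpins of the liver 7 were tested. With the diet 1 was called higher and Serpine2, for protease nexin 1, lower, at -1.81 without overlap (edgeR adjusted p = 0.000904). For eRapa on the diet Serpine2 was called higher, at 1.46 (edgeR adjusted p = 0.00262), and none was called against ND+veh. Of 14 serine proteases that these inhibitors can meet, such as neutrophil elastase and the granzymes, 3 passed the filter. With the diet 0 of the 3 were called, for eRapa on the diet 1 was higher and against ND+veh 2 were higher, at mean levels too low to be described gene by gene.

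Genes that fold, export or degrade alpha-1-antitrypsin in the endoplasmic reticulum (20, all tested) included 0 called higher and 7 called lower with the diet (median -0.23), where 16.0% and 9.86% of all genes were called. For eRapa on the diet 2 were higher and 1 lower (median 0.00), and against ND+veh 0 were higher and 5 lower (median -0.23). Edem2, which marks misfolded glycoproteins for degradation, ran from 54.4 to 73.5 CPM in ND+veh, 22.7 to 37.8 in HFD+veh and 33.3 to 51.3 in HFD+eRapa. Its log2 fold change was -0.93 with the diet (edgeR adjusted p = 1.35e-05), 0.33 for eRapa on the diet (edgeR adjusted p = 0.0246) and -0.60 against ND+veh (edgeR adjusted p = 0.000395), and ND+veh did not overlap with either diet group. Syvn1, the ubiquitin ligase of that pathway, had a log2 fold change of -1.12 with the diet (edgeR adjusted p = 0.00595) and Edem1 one of -0.45 (edgeR adjusted p = 0.0101). The glycoprotein folding sensor Uggt1 (-0.50, edgeR adjusted p = 0.00498) and Derl3 (-2.53, edgeR adjusted p = 0.0106) were lower in HFD+eRapa against ND+veh. Vcp, the ATPase that extracts proteins for degradation, changed by 0.21 (edgeR adjusted p = 0.0389) and the lectin gene Erlec1 by -0.25, without overlap (edgeR adjusted p = 0.00950), with eRapa on the diet.

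Among 15 receptors and transcription factors of the acute phase response, all tested, 1 was called higher and 3 lower with the diet (median -0.31), 4 higher and 1 lower for eRapa on the diet (median 0.36; 10.9% and 21.1% of all genes), and 0 of 15 against ND+veh (median 0.07). Osmr, the oncostatin M receptor, had log2 fold changes of 1.77 with the diet (edgeR adjusted p = 0.0157) and -1.63 for eRapa on the diet (edgeR adjusted p = 0.0133), and HFD+veh reached 26.1 CPM. Cebpb, a factor that switches on acute phase genes, had -0.79 (edgeR adjusted p = 0.0254) and 0.97 (edgeR adjusted p = 0.00558). The liver factor Foxa2 changed with the diet by -1.05 (edgeR adjusted p = 0.00450), and the interleukin-1 receptor Il1r1 changed with eRapa on the diet by 0.79 (edgeR adjusted p = 0.00499).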

How the data were processed

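RNA-seq data of hepatocytes from 24 mice were used, in the groups that the sample labels give. The authors aligned reads with STAR to mm10 with Gencode M23 and used SAMtools 1.1.0. The deposited counts are whole numbers of reads, which the authors counted per gene with HTSeq 0.11.2, and the deposited FPKM values were made by the authors with Cufflinks. Whether counting used strand is not given in the sources used here. All columns matched a sample, and none was pooled. All libraries carry 1 batch label.

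Counts of 13847 genes that passed filterByExpr were tested with edgeR 4.0.16 in R 4.3.3 (TMM, robust quasi-likelihood fit, all 3 groups, no covariate, Benjamini-Hochberg over all genes). All 9 genes passed that filter. SE is the log2 fold change over the square root of F, and intervals are 95%. Family sums replaced their members as 1 row. CPM were TMM-scaled, with a prior count of 2 on the log2 scale. Shares of a family's counts were compared by two-sided exact permutation tests. FPKM were tested with limma 3.58.1 on log2(FPKM + 1), which understates changes of low genes, for genes with a mean FPKM of at least 0.1. The fits were tested on simulated data.

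Libraries of a group differed by a chi-square per degree of freedom of at least 11.3, so each counted as 1 replicate. Nothing says more of the replicates than that they are separate animals. Wilson intervals cover counting error only. Replicate numbers belong to different animals, and same-numbered libraries did not deviate together throughout, so they were not paired.

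Coordinates and transcripts came from Gencode M21 (GRCm38, the assembly of mm10) and promoters from RefSeq (GRCm38.p6). The coding sequences of a chosen transcript of each gene were aligned within its family. Stretches of 100 bases of that transcript counted as unique when found in no transcript of another Serpin gene.

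The genes and lists were chosen with earlier results of these data known. All 9 genes are named. From each list at most 3 called genes per comparison are named, those with the largest change and a mean log2 CPM of at least 1, and for likeness the 3 genes outside the Serpina family with the highest r, predicted genes skipped. A likeness value of Serpina3m is not reported here. Alternatives were DESeq2 1.42.0, its size factors in edgeR, no filter, at least 10 counts in every library, fits of the compared groups only, replicate number as a block, FPKM with other settings, and leaving out libraries.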

Additional observations from a re-analysis of the deposited data

Results flagged for a closer look

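Of 36 groups of values tested (levels of the 9 genes, both sums and total counts in each group), 7 held a library whose distance to its nearest neighbour was large beside the range of the group, where chance gives about 1.8. ND+veh replicate 4 accounted for 6 of them and was the lowest animal in each. The groups of values are not independent, as Serpina1a to Serpina1d varied together and the Serpina1 sum holds them. The 7 is therefore no measure of an excess over the 1.8. It had log2 CPM of 9.55 for Serpina1a (10.55 to 10.89 in the other ND+veh animals), 11.32 for Serpina1b (12.04 to 12.46), 10.18 for Serpina1c (11.32 to 11.98), 10.04 for Serpina1d (11.13 to 11.72), 7.55 for Serpina3m (8.17 to 8.71) and 12.44 for the Serpina1 sum (13.37 to 13.87). In the same animal Serpina3n, at 426 CPM, was the highest of ND+veh, and the summed hepatocyte markers, at 61900 CPM, the lowest. The total count of HFD+veh replicate 3, 19.85 M, lay below the 21.26 to 22.03 M of the other HFD+veh libraries.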

How the results depend on the processing

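The number of the 9 genes called was 2, 3 and 3 in HFD+veh against ND+veh, HFD+eRapa against HFD+veh and HFD+eRapa against ND+veh under all alternatives, apart from 2 in the second under the replicate block, where Serpina3g lost its call (-2.14, edgeR adjusted p = 0.0505). Of 7 pairs of same-numbered libraries in that comparison, 2 deviated together (r over 0.1), as did 5 of 7 in the first and 2 of 8 in the third, and under the block 1 share differed with the diet (4 without), 2532 genes were called for eRapa on the diet (4432 without) and 1436 were higher with the diet (2218 without). The block changed no other call among the 9 genes and sums. The Serpina1 sum with the diet was -0.0426 under the 3 FPKM settings and ran from -0.0728 to 0.139 with 1 library left out. For eRapa on the diet it ran from 0.421 to 0.65 and was called without HFD+veh replicate 1. Uncalled values near 0 changed sign. With the diet these were Serpina1a (0.00025 under the block, -0.165 to 0.0357 with 1 library left out), Serpina1c (-0.0766 in FPKM, -0.123 to 0.146), Serpina1d (-0.01 in FPKM, -0.11 to 0.115), Serpina1e (0.0735 under the block, -1.02 to 0.25) and Serpina3m (-0.016 without ND+veh replicate 4 and HFD+veh replicate 6, -0.029 to 0.139). For eRapa on the diet they were Serpina3m (0.0127 under the block) and Serpina3n (-0.00591 without those 2 libraries, -0.0275 in FPKM, -0.0738 to 0.17). Against ND+veh they were Serpina3g (-0.0175 in FPKM with a pseudocount of 1, -0.203 to 0.402) and Serpina3m (0.00335 with no filter, 0.0958 under the block, 0.0038 with only the compared groups, -0.126 to 0.0785).

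Calls over all genes moved more. With the diet 3584 were called, against 2333 with only the compared groups, 2300 without both libraries, 2106 without HFD+veh replicate 6, and 2200 and 1580 in FPKM with a pseudocount of 0.1 and with no filter. Higher calls with the diet were 2218, against 1433, 1179 and 988 in the first 3 of these, 1393 and 1412 without ND+veh replicate 1 or HFD+veh replicate 3, and 1466, 1129 and 782 in FPKM. For eRapa on the diet, 2809 genes were called with at least 10 counts in every library and 2840 in FPKM with no filter (4432 in the main test), and 857, 861 and 655 were higher in FPKM (1507). Against ND+veh the FPKM gave 1118 with no filter (1865) and 508, 538 and 429 higher (959). The causes were not tested. Depth gave 95% Wilson intervals of at most 0.287 percentage points to either side of a share, and how reads shared by Serpina1 copies were given out was not tested beyond the 2 kinds of table.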
